A study of Rattus norvegicus with 12 samples.

Results

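Ctsb, Ctsd, Ctss, Ctsz and Ctsc encode lysosomal cathepsins, the proteases that break down proteins in the acidic lysosome. These 5 genes, of 17337 in the counts, were described in whole blood of F344 and WKY rats. They were taken by symbol. Ctsb was chosen by its counts in WKY against F344 without stress, where it was among the genes called, and the other 4 were taken as further lysosomal cathepsins. The values of that contrast are therefore given as a description with no test.

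Cathepsins are made as inactive precursors, carried to the lysosome by mannose 6-phosphate receptors and activated there by cleavage at low pH. Ctsb, Ctss, Ctsz and Ctsc are cysteine proteases of the papain family, and Ctsd is an aspartic protease. In blood they are best known from monocytes, neutrophils and other leukocytes, where they degrade engulfed protein, trim antigens and mature granule enzymes. Cystatins and some serpins inhibit cathepsins once they leave the lysosome.

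The 12 libraries came from 4 groups of 3. They were WKY after chronic restraint stress (CRS), WKY with no stress (NS), F344 after CRS and F344 with no stress. All were adult males of inbred strains from Envigo, 70 to 90 days old at the first conditioning. Every group, the unstressed ones included, underwent contextual fear conditioning, 4 weeks in the home cage, a second conditioning, and decapitation 24 hours after the last test. Stressed rats were restrained for 2 hours a day over 2 weeks, whereas unstressed rats stayed undisturbed in that time. Whether every library stands for its own rat is not said in the labels. The p-values thus reflect library-to-library spread, which may be technical in part, and intervals cover no other source of error.

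Between 1691956 and 3846263 reads per library were counted to genes, and 3 features took 88.9% to 94.6% of them. All other genes shared 90796 to 419789 reads, so low genes were measured coarsely. Unstressed F344 replicate 3 was the shallowest library. Globin genes, which mark red cells, took 29.2% to 43.4% of the reads outside those 3 features, and the leukocyte genes Lyz2 and Cd74 and the red cell gene Alas2 had reads in all groups.

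The reference sequence before the start of Ctsd is shown because it holds, in 2 places, the 6-letter E-box core CACGTG to which TFEB, the regulator of lysosomal genes, is known to bind. It is the strand of the gene, chr1:206968822-206969071, minus strand, from RefSeq on build GRCr8, with each CACGTG in capitals.
Ctsd: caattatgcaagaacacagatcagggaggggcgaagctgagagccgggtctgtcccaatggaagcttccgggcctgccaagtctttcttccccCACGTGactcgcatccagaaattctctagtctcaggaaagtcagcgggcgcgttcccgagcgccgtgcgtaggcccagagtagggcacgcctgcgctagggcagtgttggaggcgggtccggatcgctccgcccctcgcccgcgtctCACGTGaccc
The second copy lies within the longer palindrome TCACGTGA. Both motifs read the same on the other strand, and the longer one contains the shorter. Of the members, 4 had an entry in the promoter table, Ctsd, Ctss, Ctsz and Ctsc, and 1 of them held CACGTG in the 250 bases before its start. Among all 33469 promoters of that length, 5.59% held CACGTG and 0.657% held TCACGTGA. The sequence is that of the reference rat and not of F344 or WKY, and a match describes letters only.

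Ctsb, a cysteine protease that cuts within proteins and also removes dipeptides from their ends, was lower in WKY than in F344 blood after CRS. It was also lower without stress. Levels are given in CPM, the usual scaling of a gene's reads to a common library total, with library sizes adjusted by TMM factors. After CRS, Ctsb had 29.3, 41.4 and 40.7 CPM in WKY, from 115, 95 and 124 reads. After CRS, it had 85.2, 102 and 78.1 CPM in F344, from 422, 299 and 385 reads. The highest stressed WKY library thus lay well below the lowest stressed F344 library.

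The contrast that chose Ctsb compares the unstressed groups, so the difference between the stressed groups was tested. The 2 contrasts are not fully separate, because 1 fit over the 12 libraries gave both their filter, scaling and spread. Ctsb averaged 37.2 ± 6.82 CPM in stressed WKY and 88.5 ± 12.3 CPM in stressed F344 (SD, n = 3 each). The log2 fold change was -1.25 (SE 0.291, 95% interval -1.84 to -0.66), a WKY level 0.419 times that of F344, and it passed the threshold of 0.05 (edgeR adjusted p = 0.0147). Fitted on the 6 stressed libraries alone it was -1.26 (SE 0.254, edgeR adjusted p = 0.00596). Ctsb was the only one of the 3 members tested to pass, against 1.29% of the 2781 genes tested in this contrast. Of all genes tested, 9.92% had stressed WKY libraries wholly below the stressed F344 libraries, Ctsb among them, so that absence of overlap alone is common here.

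Calls in that contrast split into 18 genes higher and 18 lower in WKY, 0.647% of genes each. With library sizes of the reads outside the 3 most abundant features and no TMM factor, the split was 6 and 16, and with globin also left out 5 and 15. These scalings moved the median log2 fold change of all genes to -0.16 and -0.17. Ctsb stood at -1.44 and -1.45 under them, or -1.27 and -1.28 relative to the median, and passed both times (edgeR adjusted p = 0.00642 and 0.00839).

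The call for Ctsb did not survive every left-out library. Those whose removal cost the call were all stressed libraries, the ones this contrast compares. Unstressed libraries enter it only through the shared filter, scaling and spread, so leaving one out tests the call little. Without stressed WKY replicate 1 the log2 fold change was -1.10 (edgeR adjusted p = 0.122). It was -1.27 without stressed F344 replicate 1 (edgeR adjusted p = 0.0660) and -1.14 without stressed F344 replicate 2 (edgeR adjusted p = 0.135). Over all 24 other settings the log2 fold change lay between -1.45 and -1.10, with adjusted p from 0.00210 to 0.135, and 21 of them passed.

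Without stress, Ctsb had 43.7, 44.6 and 34.4 CPM in WKY, from 190, 136 and 89 reads. In unstressed F344 it had 71.1, 129 and 111 CPM, from 258, 211 and 97 reads. The groups did not overlap, but the F344 libraries spread widely. Their means were 40.9 ± 5.62 CPM in WKY and 104 ± 29.4 CPM in F344 (SD, n = 3 each), with a log2 fold change of -1.33 (SE 0.294). Of all genes tested, 6.33% had unstressed WKY wholly below unstressed F344. Without unstressed F344 replicates 2 and 3, the shallowest libraries of that group, the log2 fold change of Ctsb was -0.74. With no filter on low counts it was -1.02, where the median of the genes tested in the main fit moved to 0.22. In this contrast, which chose Ctsb, 0.683% of genes were called, 9 higher and 10 lower in WKY. Without TMM the splits were 7 higher and 4 lower, or 6 and 2 with globin also left out, and the median of all genes moved to 0.22 and 0.23.

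The spread within unstressed F344 depended on the scaling. Per 100000 reads outside the 3 most abundant features, Ctsb had 36.0, 40.8 and 42.3 reads in stressed WKY and 54.6, 61.4 and 52.2 in unstressed WKY. On that scale it had 122, 106 and 91.7 reads in stressed F344 and 117, 108 and 107 in unstressed F344. All WKY libraries again lay below all F344 libraries, and the unstressed F344 libraries lay close together. The share of all genes with that order was counted on TMM-scaled CPM only.

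**Figure D1:**
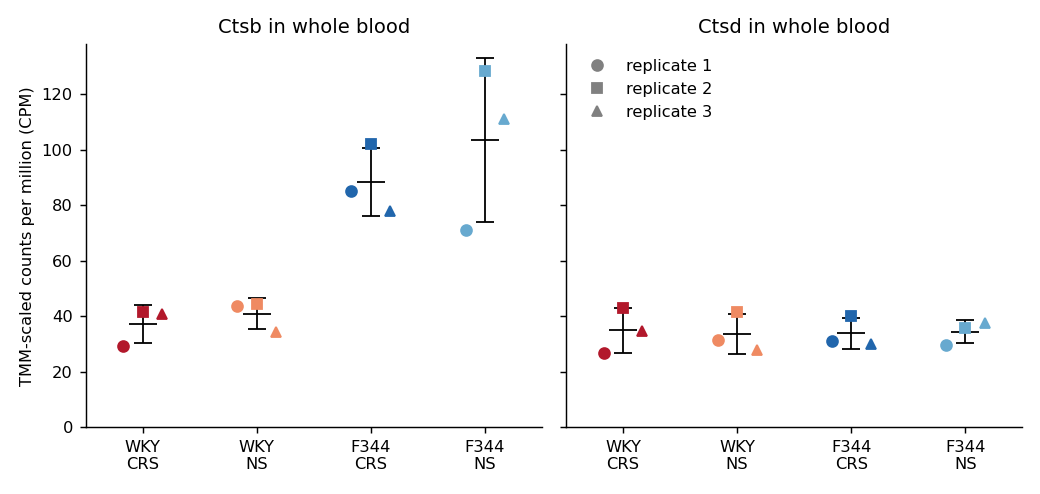
TMM-scaled CPM of Ctsb and Ctsd in each of the 12 libraries, by group, with points for libraries, the replicate shown by shape and bars for the mean ± SD of 3 libraries. For Ctsb all 6 WKY libraries lie at 44.6 CPM or lower and all 6 F344 libraries at 71.1 CPM or higher, while the 4 groups of Ctsd overlap.

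With restraint Ctsb in WKY averaged 37.2 ± 6.82 CPM after CRS and 40.9 ± 5.62 CPM without stress (log2 -0.15, SE 0.293). In F344 it averaged 88.5 ± 12.3 CPM after CRS and 104 ± 29.4 CPM without stress (log2 -0.22, SE 0.286). Both use the unstressed libraries that chose Ctsb and are given with no test. The mean over strains weighs both unstressed groups equally, and there no change passed: the log2 fold change was -0.18 (SE 0.204, 95% interval -0.60 to 0.23, edgeR adjusted p = 0.956). It was 0.12 without unstressed F344 replicates 2 and 3.

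Few genes passed in these restraint contrasts. In the mean over strains edgeR called 0.036% of genes, 1 of 2781, and 197 had an unadjusted p under 0.05. Within WKY and within F344, edgeR called 0% of genes, and 161 genes in WKY and 130 in F344 had an unadjusted p under 0.05. DESeq2 called 0 in each, and limma-voom called 0 in WKY and 2 in F344. The strain difference of Ctsb differed between stressed and unstressed rats by log2 0.07 (SE 0.410), given with no test because it contains the contrast that chose the gene. Per 100000 reads outside the 3 most abundant features, stressed WKY libraries lay below unstressed WKY libraries without overlap. How many of all genes had that order on this scale was not counted, so the separation cannot be read as particular to Ctsb. Under that scaling the log2 fold change was -0.54, where the median of all genes moved to -0.36.

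In order of mean CPM, Ctsb was highest in unstressed F344, followed by stressed F344, unstressed WKY and stressed WKY. Neighbours of the same strain overlapped. The step between stressed F344 and unstressed WKY had no overlap. Of all genes tested, 0.935% had the 6 WKY libraries wholly below the 6 F344 libraries, a count that again includes the unstressed contrast.

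Ctsd, the aspartic protease that starts much of the protein breakdown in lysosomes, stood at similar levels in all groups. It had 26.7, 43.2 and 34.8 CPM in stressed WKY, from 105, 99 and 106 reads. In stressed F344 it had 31.3, 40.3 and 30.0 CPM, from 155, 118 and 148 reads. The ranges of stressed WKY and stressed F344 overlapped almost entirely.

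Without stress Ctsd had 31.3, 41.6 and 27.9 CPM in WKY and 29.8, 35.9 and 37.7 CPM in F344. Ctsd averaged 34.9 ± 8.22 CPM in stressed WKY, 33.6 ± 7.15 in unstressed WKY, 33.9 ± 5.59 in stressed F344 and 34.5 ± 4.18 in unstressed F344 (SD, n = 3 each), and no neighbours in the order of these means were separated. After CRS the log2 fold change of WKY against F344 was 0.04 (SE 0.283, 95% interval -0.53 to 0.62, edgeR adjusted p = 0.980). For CRS against NS over both strains it was 0.02 (SE 0.204, 95% interval -0.40 to 0.43, edgeR adjusted p = 0.991). The sign of such small values turned with several settings and is not a direction.

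**Figure D2:**
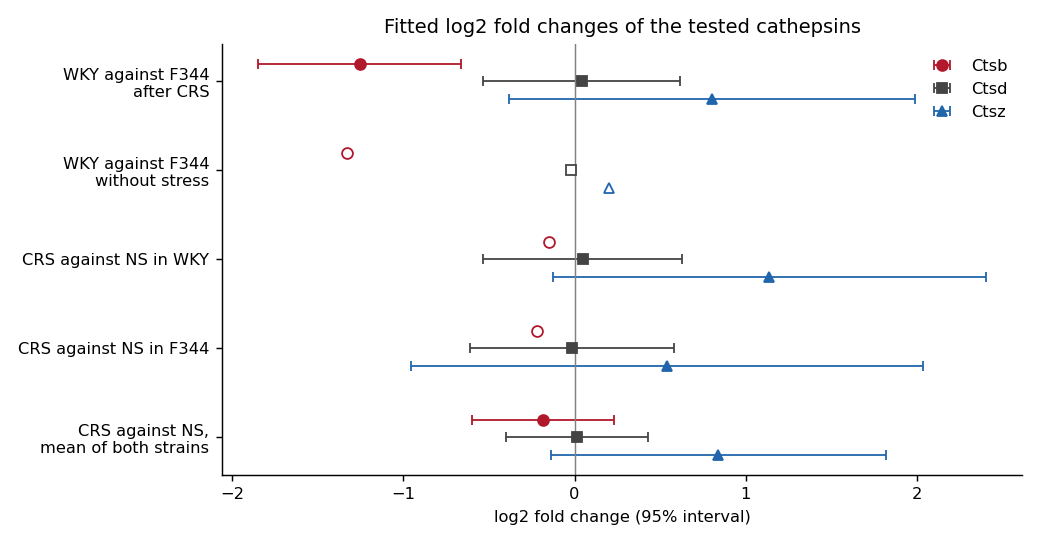
Fitted log2 fold changes of Ctsb, Ctsd and Ctsz in 5 contrasts, with 95% intervals from the edgeR fit and open symbols without intervals for values given with no test, namely WKY against F344 without stress and Ctsb within each strain. Only the interval of Ctsb in WKY against F344 after CRS, -1.84 to -0.66, lies clear of 0.

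The other 3 cathepsins had few reads. Ctsz, a carboxypeptidase also called cathepsin X, passed the filter on low counts, and Ctss and Ctsc did not. A single read was worth 0.202 to 1.14 CPM, so the values of all 3 move in coarse steps. Ctsz met the filter's level in stressed libraries only: WKY replicates 1 and 3, with 11 and 13 reads, and F344 replicate 1, with 13. Its restraint values may therefore be tilted upward by the filter.

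Ctsz had 11, 6 and 13 reads in stressed WKY, or 2.80, 2.62 and 4.27 CPM. It had 10, 2 and 3 reads in unstressed WKY, or 2.30, 0.655 and 1.16 CPM. The stressed WKY libraries lay above the unstressed ones, but the nearest libraries, at 2.62 and 2.30 CPM, were closer than the worth of 1 read in the stressed one, and 4.93% of all genes tested had that order. The fitted log2 fold change was 1.14 (SE 0.624, edgeR adjusted p = 0.945). It was 1.84 without unstressed WKY replicate 1, whose 10 reads were the most in that group (edgeR adjusted p = 0.808).

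In F344 Ctsz had 13, 4 and 7 reads after CRS, or 2.62, 1.37 and 1.42 CPM, and 6, 1 and 1 reads without stress, or 1.65, 0.609 and 1.14 CPM. These groups overlapped (log2 0.54, SE 0.736, edgeR adjusted p = 1.00). The log2 fold change was 1.18 without unstressed F344 replicate 1 (edgeR adjusted p = 0.718) and 0.30 without unstressed F344 replicate 2 (edgeR adjusted p = 0.998). Over both strains CRS against NS gave log2 0.84 (SE 0.481, 95% interval -0.14 to 1.82, edgeR adjusted p = 0.818). WKY against F344 after CRS gave log2 0.80 (SE 0.585, 95% interval -0.38 to 1.99, edgeR adjusted p = 0.656). None of these passed, the intervals are wide, and Ctsz was tested only through stressed libraries that reached the filter.

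Ctss, which trims the invariant chain from MHC class II molecules in antigen-presenting cells, had 9, 2 and 2 reads in stressed WKY and 7, 2 and 5 in unstressed WKY. In F344 it had 7, 8 and 10 reads after CRS and 2, 2 and 0 without stress. In CPM this was 1.41, 2.73 and 2.03 in stressed F344, against 0.552, 1.22 and 0 in unstressed F344. The stressed F344 libraries were higher without overlap, as were those of 6.22% of the genes tested, but the unstressed ones included the shallowest library. In a fit with no filter the log2 fold change of CRS against NS in F344 was 1.86 (SE 0.832, edgeR adjusted p = 0.855), which did not pass. The median of the genes tested in the main fit moved to 0.36 there.

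Ctsc, or dipeptidyl peptidase I, activates the serine proteases stored in granules of neutrophils and killer lymphocytes. It had 8, 1 and 3 reads in stressed WKY and 10, 12 and 1 in unstressed WKY. In F344 it had 8, 3 and 9 reads after CRS and 8, 3 and 0 without stress. All 4 groups overlapped their neighbours in CPM. Without the filter, WKY against F344 after CRS gave log2 -0.40 for Ctsc (SE 0.674, edgeR adjusted p = 0.967) and -0.65 for Ctss (SE 0.662, edgeR adjusted p = 0.859). Neither passed.

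**Figure D3:**
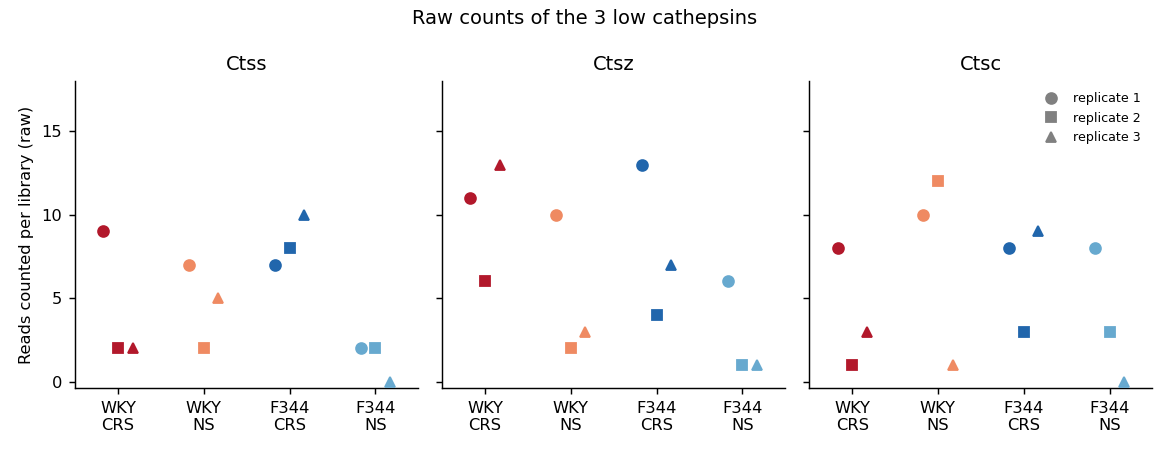
Raw reads of Ctss, Ctsz and Ctsc in each library, by group, with the replicate shown by shape. No library has more than 13 reads of any of them, and stressed and unstressed libraries of a strain overlap except for Ctss in F344, at 7 to 10 reads after CRS and 0 to 2 without stress.

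Overlapping genes bear on how reads were assigned. In the GRCr8 annotation Ctsb, Ctss and Ctsc overlap no other gene, Ctsd overlaps Tnni2 and Ctsz overlaps Nelfcd. Reads recorded as ambiguous between features made up 78.3% to 83.6% of a library, so the counts of Ctsd and Ctsz may miss reads in the shared stretches.

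No other cathepsin tested was called. Of 24 other cathepsins and related lysosomal or aspartic proteases listed, 19 were in the files, 15 had any read and 6 were tested. Between WKY and F344 after CRS 0 of the 6 passed in edgeR (unadjusted p under 0.05 in 0) and 0 passed in DESeq2 or limma-voom. Their median log2 fold change was 0.21, against 0.01 for all genes tested. They were the carboxypeptidase Ctsa (0.17), the aspartic proteases Ctse (0.46) and Napsa (0.60), the cysteine proteases Ctsf (-0.17) and Ctsh (0.24), and Lgmn (-0.58), the asparaginyl endopeptidase that processes several cathepsins.

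Ctse, known from red cells as well as leukocytes, averaged 7.05 ± 2.71 CPM in stressed WKY and 5.17 ± 0.578 CPM in stressed F344 (SD, n = 3 each). Ctsl, a major cysteine cathepsin of macrophages, had 21 reads over all libraries. Ctsw, a cathepsin of cytotoxic lymphocytes, had 77. Ctsg, a neutrophil granule protease, had 0 reads over all libraries.

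In the restraint contrast over both strains 0 of these 6 passed in edgeR (unadjusted p under 0.05 in 0), and 0 passed in DESeq2 or limma-voom. Their median log2 fold change there was -0.12. The values ran from -0.60 for Lgmn to 0.37 for Napsa.

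Among inhibitors of cathepsins, 3 of 22 listed were tested and 0 passed between strains after CRS in edgeR (unadjusted p under 0.05 in 1), DESeq2 or limma-voom. Of all genes tested, 11% had an unadjusted p under 0.05 in edgeR there. Serpinb6, an inhibitor of cathepsin G and related proteases, averaged 1.57 ± 0.959 CPM in stressed WKY and 4.79 ± 0.716 CPM in stressed F344 (log2 -1.61, SE 0.542, edgeR adjusted p = 0.179). It passed the filter on low counts through F344, where it was high, so this value may be enlarged by the filter. Serpinb9, the inhibitor of granzyme B, gave log2 -1.11 (SE 0.642). Cst3, cystatin C, the main secreted inhibitor of cysteine cathepsins, averaged 17.1 ± 5.27 CPM in stressed WKY and 15.7 ± 1.38 CPM in stressed F344 (log2 0.11, SE 0.325). The median of the 3 was -1.11.

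Sorting genes carry cathepsins to the lysosome, and edgeR called 0 of 9 tested after CRS. The smallest p in each direction belonged to the adaptor subunit Ap1b1 (log2 0.92, edgeR adjusted p = 0.488) and the sorting adaptor Gga1 (log2 -0.60, edgeR adjusted p = 0.648). Among other lysosomal hydrolases 0 of 11 were called, with 8 positive and a median of 0.17. These were led by Smpd1, acid sphingomyelinase (log2 1.12, edgeR adjusted p = 0.257), and in the other direction by Acp5, the tartrate-resistant acid phosphatase (log2 -0.996, edgeR adjusted p = 0.648).

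Lysosomal membrane proteins (0 of 4 called, median 0.05) held Laptm5 at log2 0.36 and Tpcn1 at log2 -0.19. The proton pump, or V-ATPase, which acidifies the lysosome, had 0 of 7 called and a median of -0.18, with Tcirg1 at log2 -0.92 and Atp6v1b2 at log2 0.52. Regulators of lysosomal genes had 0 of 5 called and a median of 0.26, with Rptor at log2 1.08 and Tfeb at log2 -0.24. Unadjusted p-values under 0.05 in edgeR were held by 0 sorting genes, 3 hydrolases, 0 membrane proteins, 1 pump subunit and 1 regulator, where 11% of all genes tested had one. DESeq2 and limma-voom called 0 in each list. Over both strains CRS against NS gave 0 edgeR calls in each of these 5 lists, with medians from -0.15 to 0.16.

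Cd74, the invariant chain that Ctss trims, and genes of the class II pathway had 0 of 6 called after CRS by edgeR, DESeq2 and limma-voom. All 6 were negative in WKY against F344 after CRS, with a median of -0.96, led by RT1-Db1 (log2 -1.94, edgeR adjusted p = 0.184). An unadjusted p under 0.05 in edgeR was held by 3 of the 6, against 307 of 2781 among all genes tested. Without stress 4 of the 6 were positive and 2 negative, with a median of 0.20. None of 11 listed substrates of Ctsc passed the filter. The most counted were Gzmm, with 60 reads over all libraries, and Gzmk, with 48, while Elane had 5 and Prtn3 2.

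**Figure D4:**
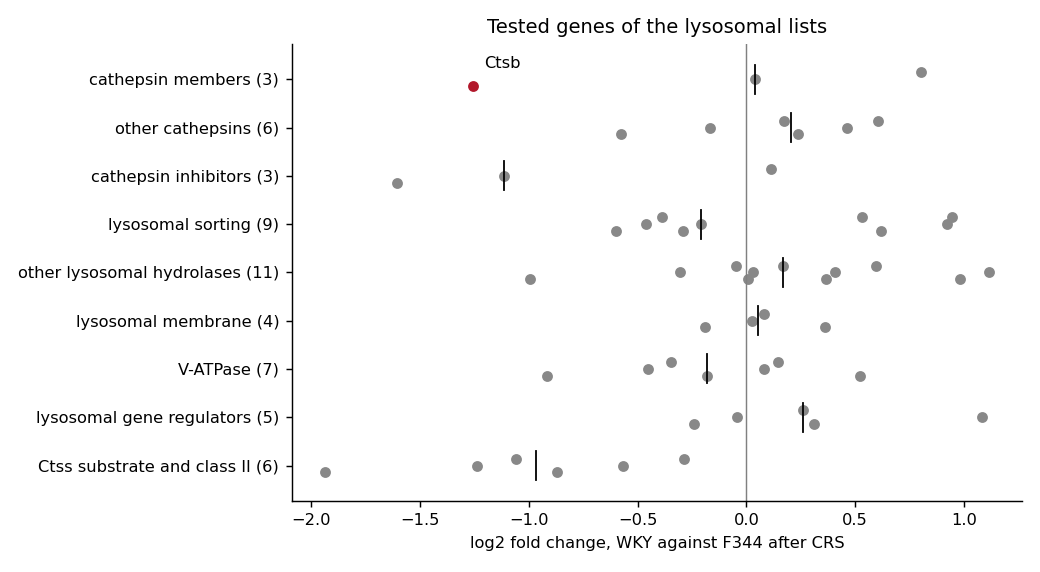
Log2 fold changes of WKY against F344 after CRS for the tested genes of each list, with the number tested in brackets, a point per gene (red where edgeR called it) and a black line at the list's median. Ctsb, at -1.25, is the only called gene shown.

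The cells in the sample were followed through marker lists, since in bulk blood fewer cells of a type and less RNA per cell cannot be told apart. Summed monocyte markers (13 of 14 in the files, none at 0 throughout) moved opposite to Ctsb, at 126 to 175 CPM in stressed WKY and 84.0 to 93.1 CPM in stressed F344. Cybb, the catalytic subunit of the phagocyte oxidase, was higher in stressed WKY (log2 1.88, edgeR adjusted p = 0.0114). It had 58 reads in stressed WKY and 21 in stressed F344. Cybb passed the filter on low counts through WKY, where it was high, so its difference may be enlarged by the filter. Of 6 monocyte genes tested, edgeR called 1, DESeq2 2 and limma-voom 2, against 36, 35 and 40 of all 2781 genes tested. Lyz2, the lysozyme of monocytes, gave log2 0.96 (edgeR adjusted p = 0.0724). It made up most of the sum, with 119 ± 22.3 CPM in stressed WKY and 61.3 ± 5.74 CPM in stressed F344 (SD, n = 3 each). Without Lyz2 the other 12 markers summed to 31.4 to 35.7 CPM in stressed WKY and 25.6 to 27.7 CPM in stressed F344. Not every marker differed, with Csf1r at log2 0.07 and Fcgr1a at log2 -0.06.

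Summed eosinophil markers (6 of 7 in the files) moved with Ctsb, at 27.9 to 58.0 CPM in stressed WKY and 149 to 163 CPM in stressed F344. Alox15, the 12/15-lipoxygenase, made up nearly all of that sum, with 41.0 ± 12.3 CPM in stressed WKY and 153 ± 7.97 CPM in stressed F344 (SD, n = 3 each, log2 -1.90, edgeR adjusted p = 0.000482). Without Alox15 the other 5 markers overlapped, at 0.657 to 6.98 CPM in stressed WKY and 4.06 to 5.80 CPM in stressed F344. The granule proteins that define eosinophils were near 0: over 3 libraries Epx had 7 reads in stressed WKY and 1 in stressed F344, and Prg2 had 14 in stressed WKY and 0 in stressed F344. Siglec5, a surface lectin, was also lower, with 2 reads in stressed WKY and 57 in stressed F344 (log2 -4.14, edgeR adjusted p = 0.000836). It passed the filter on low counts through F344, where it was high, so its difference may be enlarged by the filter. The part of these cells in the Ctsb difference was not tested.

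Summed T cell markers were at 35.8 to 57.8 CPM in stressed WKY and 59.7 to 64.2 CPM in stressed F344, and 0 of 10 tested genes passed in edgeR (unadjusted p under 0.05 in 2), DESeq2 or limma-voom. The smallest p in each direction belonged to Cd3g, a chain of the T cell receptor complex (log2 -1.72, edgeR adjusted p = 0.265), and the coreceptor Cd4 (log2 0.26). Summed platelet markers were at 105 to 177 CPM in stressed WKY and 86.7 to 98.7 CPM in stressed F344. Of 8 tested, 7 were positive, 4 had an unadjusted p under 0.05, and edgeR called 0, DESeq2 0 and limma-voom 1. The platelet genes were led by the secreted adhesion protein Thbs1 (log2 1.20, edgeR adjusted p = 0.0583). In the other direction they were led by the receptor subunit Gp1ba (log2 -1.01, edgeR adjusted p = 0.395). The part of T cells and platelets in the Ctsb difference was not tested.

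Ranges overlapped for neutrophil markers (53.7 to 59.8 and 43.0 to 56.5 CPM), B cell markers (18.1 to 26.2 and 24.9 to 28.2 CPM), NK cell markers (6.54 to 14.5 and 5.05 to 10.8 CPM) and red cell precursor markers (1024 to 1438 and 1128 to 1297 CPM), stressed WKY given before stressed F344. They also overlapped for dendritic cell markers (2.04 to 2.96 and 1.82 to 3.41 CPM), basophil markers (0.509 to 2.62 and 1.01 to 1.02 CPM) and genes of tissue carried over at decapitation (11.2 to 18.3 and 8.32 to 11.6 CPM). Tested from these lists were 5 neutrophil, 5 B cell, 2 NK cell, 9 red cell precursor and 2 carried-over tissue genes. After CRS edgeR, DESeq2 and limma-voom called 0 of them, and edgeR had 0 at an unadjusted p under 0.05. Of the dendritic cell and basophil markers 0 were tested, so these lists could give no call. The smallest p values were those of Mmp9 (log2 0.69) for neutrophils, Cd22 (log2 -0.54) and Fcrla (log2 0.54) for B cells, and Klrk1 (log2 0.59) for NK cells. For red cell precursors they were those of Kel (log2 0.53) and Fech (log2 -0.22).

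Within unstressed F344, red cell precursor markers had 819, 1868 and 1569 CPM in replicates 1, 2 and 3, the order in which Ctsb had 71.1, 129 and 111 CPM. The eosinophil list had 76.9, 196 and 146 CPM in the same libraries. All these values share the TMM scaling of their library, so a common order can come from the scaling. Per 100000 reads outside the 3 most abundant features, Ctsb had 117, 108 and 107 reads in replicates 1, 2 and 3, which is not that order. The marker sums are given in TMM-scaled CPM only. The part of red cell precursors and eosinophils in the spread of Ctsb was not tested.

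**Figure D5:**
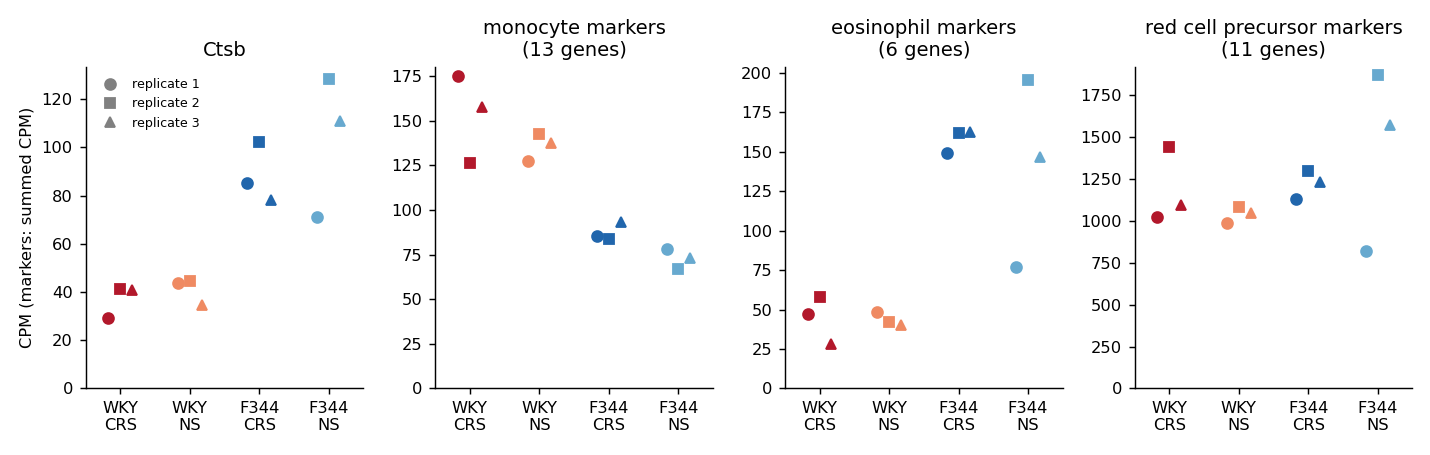
Ctsb in CPM and the summed CPM of monocyte, eosinophil and red cell precursor markers in each library, by group, with the replicate shown by shape. Ctsb and the eosinophil list, which is mostly Alox15, are low in all 6 WKY libraries, the monocyte list is high in them, and the red cell list overlaps between strains.

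The genes most like Ctsb across the 12 libraries were sought among 1087 tested genes averaging at least 5 CPM. Symbols beginning with LOC or RGD were left out. Likeness was the root mean square difference of log2 CPM, each gene centred on its own mean, where a gene that did not vary would differ from Ctsb by 0.684. The closest was Rhd, a blood group gene of red cells, with a difference of 0.186. It averaged 5.01 ± 0.814 CPM in stressed WKY, 5.44 ± 0.680 in unstressed WKY, 13.7 ± 3.83 in stressed F344 and 13.9 ± 5.58 in unstressed F344.

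Next came the glycosyltransferase gene Galnt10 (0.221), the nuclear receptor gene Nr2f1 (0.246), the mitochondrial protein gene Fam210b (0.260) and Carhsp1, which encodes a cold shock domain protein (0.275). All were lower in both WKY groups than in both F344 groups by their mean CPM, an order that follows from their choice by likeness to Ctsb. Ctsd was at rank 218 by this measure, with a difference of 0.654, close to that of a gene that does not vary. The values are a description over libraries that also chose Ctsb.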

How the data were processed

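Whole blood RNA was collected into PAXgene tubes and sequenced on Ion Proton libraries, per the labels' protocols. The deposited files give raw read counts per gene, whole numbers that the authors did not normalise. Per the submitters' processing notes, the tools were TopHat2 2.1.0, Cufflinks 2.2.1 and cutadapt 1.14, with build rn6. How reads were counted, with which annotation and strand setting, is not given in the sources used here. Every file closes with 5 rows that name no gene, holding 80.9% to 86.6% of its counts, and these were left out.

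Groups came from the sample titles. Counts were tested with edgeR 4.0.16 (glmQLFit, glmQLFTest, TMM) in R 4.3.3, in 1 fit of 4 group means, after filterByExpr with a minimum count of 10 kept 2781 genes. Adjusted p-values are Benjamini-Hochberg over these, with a threshold of 0.05. Each SE is the absolute log2 fold change divided by the root of F.

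The members, the 10 pathway lists and 11 cell marker lists, and the tests were chosen with earlier results of these data known. All 5 members, the other cathepsins tested and the 5 genes most like Ctsb are named. From other lists the text names genes past the threshold or, with none, those of smallest p in each direction after CRS, except for 1 list whose gene is not reported here. Lyz2, Csf1r, Fcgr1a, Cd74, Alas2, Serpinb9, Epx, Prg2, the cathepsins below the filter and the Ctsc substrates were named after their values were seen. Alternatives were DESeq2 1.42.0, limma-voom (limma 3.58.1), other scalings, filters, subsets, a replicate block and left-out libraries.

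On simulated counts for 2781 genes, 200 were changed in each of 5 runs. Recovery was counted only among changed genes that passed the filter again. For WKY against F344 after CRS, 19.6% of 460 changes of 2-fold and 83.2% of 471 changes of 4-fold were recovered. For CRS against NS over both strains, 60.3% of 413 and 98.5% of 456 were recovered. False calls were 3.79% and 4.51% of calls. The counts were drawn from edgeR's own count model, with mean levels taken from these data and the spread edgeR estimated in them. These shares therefore describe the fit where its own model holds, with 200 genes changed, and are not an error rate of these data.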

Additional observations from a re-analysis of the deposited data

How the results depend on the processing

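Ctsb kept its direction in WKY against F344 after CRS in all 24 alternatives run, and 9 of 12 left-out libraries kept the call (log2 -1.33 to -1.10 over the 12). The exceptions, stressed WKY replicate 1 and stressed F344 replicates 1 and 2, gave -1.10, -1.27 and -1.14. All are among the stressed libraries that the contrast compares. A left-out unstressed library touches it only through the shared filter, scaling and spread, so 9 of 12 overstates how firm the call is. The numbers of genes called in that contrast ran from 18 to 46 over left-out libraries and were 22 and 20 without TMM, after removing the 3 most abundant features alone or with globin, scalings added once the data had been seen. The cause of changed values was not tested.

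For CRS against NS over both strains, genes called numbered 3 by DESeq2, 2 by limma-voom, 6 with no filter, 2 with the replicate block, 0 without both shallowest unstressed F344 libraries, 4 and 0 without TMM, and 0 to 5 over left-out libraries. Ctsb turned to log2 0.031 with no filter and 0.12 without both shallowest libraries. With no filter the median of the genes tested in the main fit moved to 0.18, above Ctsb. In WKY 8 genes were called with no filter, 1 and 1 without TMM, and 0 to 2 over left-out libraries. In F344 the counts were 2 by limma-voom, 5 with no filter and 0 to 5 over left-out libraries. Between strains without stress they were 9 in a fit of those groups, 5 without both shallowest libraries, 11 and 8 without TMM, and 5 to 45 over left-out libraries. For the difference between strains in response they were 3 with no filter, 1 without both shallowest libraries, 3 and 3 without TMM, and 0 to 2 over left-out libraries.

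Values near 0 changed sign. In F344, CRS against NS turned for Ctsb to 0.19 with no filter, 0.38 without both shallowest libraries, 0.11 without TMM and globin, and -0.42 to 0.019 over left-out libraries. The median of the genes tested in the main fit moved to 0.36 with no filter and 0.21 without TMM and globin, above Ctsb both times. The Ctsd values in F344 under these settings, given below, are to be read against the same medians. In WKY it ran from -0.25 to 0.0058 over left-out libraries. Ctsd in WKY against F344 after CRS was -0.026 by limma-voom, -0.046 with no filter, -0.14 and -0.16 without TMM, and -0.13 to 0.21 over left-out libraries. For CRS against NS over both strains it was -0.058 by limma-voom, -0.045 with a stricter filter, -0.15 without TMM, and -0.055 to 0.15 over left-out libraries. Ctsd with restraint in WKY was -0.018 by limma-voom, -0.35 and -0.21 without TMM, and -0.12 to 0.26 over left-out libraries. Ctsd with restraint in F344 was 0.36 with no filter, 0.0063 without the 3 features, 0.25 without both shallowest libraries, 0.044 and 0.22 without TMM, and -0.13 to 0.076 over left-out libraries.

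With the replicate block Ctsb was at log2 -1.26 between strains after CRS (edgeR adjusted p = 0.00372), 42 genes were called there, and no call of a member changed. Whether the replicate numbers pair the libraries was not settled. Deviations correlated over 0.1 in 4 of 18 same-numbered pairs (-0.0901 to 0.204), and 9 of 12 libraries correlated best with their own number. Ctss and Ctsc were fitted with no filter only, and Ctsz was below the filter in some settings. Ctsz with restraint ran from 0.84 to 1.84 in WKY and from 0.30 to 1.18 in F344 over left-out libraries. Ctss, Ctsz and Ctsc had 0 to 13 reads a library, so 1 read moves their values in coarse steps.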
